A study of Mus musculus with 6 samples.

Results

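The carnitine shuttle genes described here are 8 genes taken by name: Cpt1a, Cpt1b, Cpt1c, Cpt2, Slc25a20, Slc22a5, Crat and Crot. All 8 were found among the 37620 genes counted, and all 8 passed the filter on low counts that left 14125 genes for testing. RNA sequencing was done on BFU-E, or burst-forming unit erythroid cells, which are an early stage of the red blood cell lineage, sorted from E14.5 fetal livers of 129/SvImJ mice. The sort removed cells with mature blood markers, Sca-1, CD16/32, CD41 or CD34 and kept c-kit positive cells low in CD71. The 3 groups were untreated cells, cells given 100 nM dexamethasone (Dex), and cells given 100 nM Dex with 10 µM GW7647, with 2 libraries in each. Both drug groups carried the same Dex dose, and no group had GW7647 alone, so an effect of GW7647 without Dex cannot be read from these libraries. The labels give 12 h of treatment, while the headers of one deposited table carry another time. Culture was in serum-free medium with erythropoietin at 2 U/mL, IGF-1 at 40 ng/mL and stem cell factor (SCF) at 100 ng/mL. The labels do not say whether the untreated cells were cultured or taken fresh, nor whether the 2 libraries of a group came from separate litters or cultures. The p-values therefore measure only the spread between these libraries, which may be technical.

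Long-chain fatty acids enter mitochondria as esters of carnitine. A carnitine palmitoyltransferase 1 enzyme (CPT1) on the outer membrane moves the acyl group from coenzyme A to carnitine, the carrier encoded by Slc25a20 exchanges the acylcarnitine for free carnitine across the inner membrane, and CPT2 returns the acyl group to coenzyme A inside, where beta-oxidation begins. Malonyl-CoA, the product of acetyl-CoA carboxylase, inhibits CPT1 and so holds back fatty acid entry. Cpt1a encodes the form found in liver and many other tissues, Cpt1b the muscle form, and Cpt1c a form known mainly from brain, located in the endoplasmic reticulum and with little transferase activity. Slc22a5 encodes OCTN2, the sodium-dependent carnitine transporter of the cell membrane. Crat and Crot encode transferases for short and medium acyl chains, the latter in peroxisomes. Dex activates the glucocorticoid receptor. GW7647 activates PPAR alpha, a nuclear receptor known to raise genes of fatty acid oxidation in liver. The comparisons ask how these genes differ with Dex and with GW7647 added to it.

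The start regions of the 3 genes on which the results below turn are shown to place the motifs of both receptors. RefSeq promoter entries for build GRCm38.p6 matched 6 of the 8 genes by symbol, namely Cpt1a, Cpt1c, Cpt2, Slc25a20, Slc22a5 and Crot. The 250 bases before each annotated start were searched on both strands for the PPAR element AGGTCANAGGTCA, for its single repeat AGGTCA (which the full element also contains), and for the core AGAACA of the glucocorticoid receptor element. Each sequence below runs 5′ to 3′ on the gene's own strand, and capitals mark a match to the PPAR repeat.
Cpt1a: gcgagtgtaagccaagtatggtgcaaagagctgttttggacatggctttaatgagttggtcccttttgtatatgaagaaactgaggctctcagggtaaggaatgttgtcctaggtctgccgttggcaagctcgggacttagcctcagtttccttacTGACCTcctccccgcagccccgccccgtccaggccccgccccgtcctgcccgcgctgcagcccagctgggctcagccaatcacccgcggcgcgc
Slc25a20: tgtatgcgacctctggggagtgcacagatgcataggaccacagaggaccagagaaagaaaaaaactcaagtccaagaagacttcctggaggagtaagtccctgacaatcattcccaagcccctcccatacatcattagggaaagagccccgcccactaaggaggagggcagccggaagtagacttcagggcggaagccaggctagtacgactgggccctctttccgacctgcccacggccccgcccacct
Cpt1c: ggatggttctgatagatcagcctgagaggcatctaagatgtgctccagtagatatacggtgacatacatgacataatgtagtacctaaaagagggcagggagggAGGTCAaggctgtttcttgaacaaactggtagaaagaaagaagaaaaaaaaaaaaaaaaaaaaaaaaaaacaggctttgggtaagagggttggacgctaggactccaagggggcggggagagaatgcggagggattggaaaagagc
The Cpt1a window lies at chr19:3323051-3323300 on the plus strand, the Slc25a20 window at chr9:108661886-108662135 on the plus strand, and the Cpt1c window at chr7:44974852-44975101 on the minus strand. Cpt1a held 1 repeat on the strand opposite the gene, from 94 to 89 bases before the start. Cpt1c held 1 repeat on its own strand, from 146 to 141 bases before the start. None of the 6 windows held the full PPAR element or the glucocorticoid receptor core, and Cpt2, Slc25a20, Slc22a5 and Crot held no PPAR repeat. Among 32851 windows of the same length, 0.0335% held the full element, 14% the PPAR repeat and 16.1% the glucocorticoid receptor core. A match describes letters only, and more distant elements were not searched.

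Libraries held 35970286 to 54174801 counts. Markers of erythroid progenitors (Kit, Gata1, Gata2, Klf1, Tal1, Epor, Tfrc and Gfi1b) were all tested and summed to 177941 to 179829 normalized counts in untreated libraries, 140132 to 141162 with Dex and 141262 to 141845 with Dex plus GW7647. With Dex 3 of these 8 markers rose and 3 fell (median log2 -0.07), where 25.5% of all tested genes rose and 26.0% fell. Kit went from a mean of 4290 to 12656 normalized counts. Tfrc, the transferrin receptor CD71 and the most abundant of the list, went from 104973 to 66602. Of hepatoblast markers, Alb had 1 to 5 raw counts, Ttr 0 or 1 and Serpina1a 0 in every library. The summed list went from 60.1 to 74.6 in untreated libraries to 282 to 296 with Dex and 207 to 213 with both drugs. Of the 4 hepatoblast markers tested, 3 rose with Dex. Apoa1 went from a mean of 7.20 to 156 normalized counts, Afp from 10.1 to 33.9 and Hnf4a from 34.6 to 79.5. Apoa1 and Afp had under 10 raw counts in both untreated libraries. The part of these markers in the results below was not tested. In these bulk samples, fewer cells of a type and less RNA per cell cannot be told apart.

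A normalized count here is a read count set to a common library size, the mean of the 6 scaled sizes, and a gene is called when its p in edgeR's quasi-likelihood test, adjusted by Benjamini-Hochberg over all 14125 genes, is under 0.05. With Dex against untreated, 4 of the 8 carnitine genes rose (Cpt1c, Cpt2, Slc25a20 and Crot), 2 fell (Cpt1a and Crat) and 2 were not called (Cpt1b and Slc22a5). In that comparison 51.6% of all tested genes were called, 25.5% higher and 26.0% lower, so 6 called of 8 sits among a large number of calls. With Dex plus GW7647 against Dex, 2 of the 8 rose (Cpt1a and Slc25a20), 0 fell and 6 were not called, where 9.73% of all tested genes were called, 2.15% higher and 7.58% lower. DESeq2 called 3 of the 8 higher and 0 lower, beside 231 higher and 871 lower over all genes. At an unadjusted p under 0.05 edgeR gave 4 higher and 0 lower of the 8. The share of all tested genes at that unadjusted cutoff was not worked out, here or for the lists below. The background of genes called higher at this step, 303 in all, was 64 and 54 without replicate 1 or 2 of Dex plus GW7647 and 618 without Dex replicate 2, and Cpt1a and Slc25a20 were called in each of these fits. With Dex plus GW7647 against untreated, 6 of the 8 rose, Crat fell and Cpt1b was not called, where 49.7% of all tested genes were called, 24.7% higher and 25.1% lower. The median log2 difference of the 8 genes was 0.35, 0.15 and 0.67 in the 3 comparisons in that order, beside 0.01, 0.00 and 0.02 over all tested genes. The 3 comparisons share groups and are not independent of each other.

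Scaling by total counts in place of the trimmed mean moved the median of all tested genes to 0.14 with Dex against untreated and to 0.14 with both drugs against untreated. The calls over all genes were then 5451 higher and 2584 lower in the former and 5480 higher and 2719 lower in the latter, against 3606 and 3677, and 3486 and 3539, with the trimmed mean. Among the 8 genes, that scaling called 5 higher and 1 lower with Dex, and 6 higher and 0 lower with both drugs against untreated. Of the called differences from untreated cells, those of Crat (-0.16 in both comparisons) lost their call under that scaling.

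**Figure D1:**
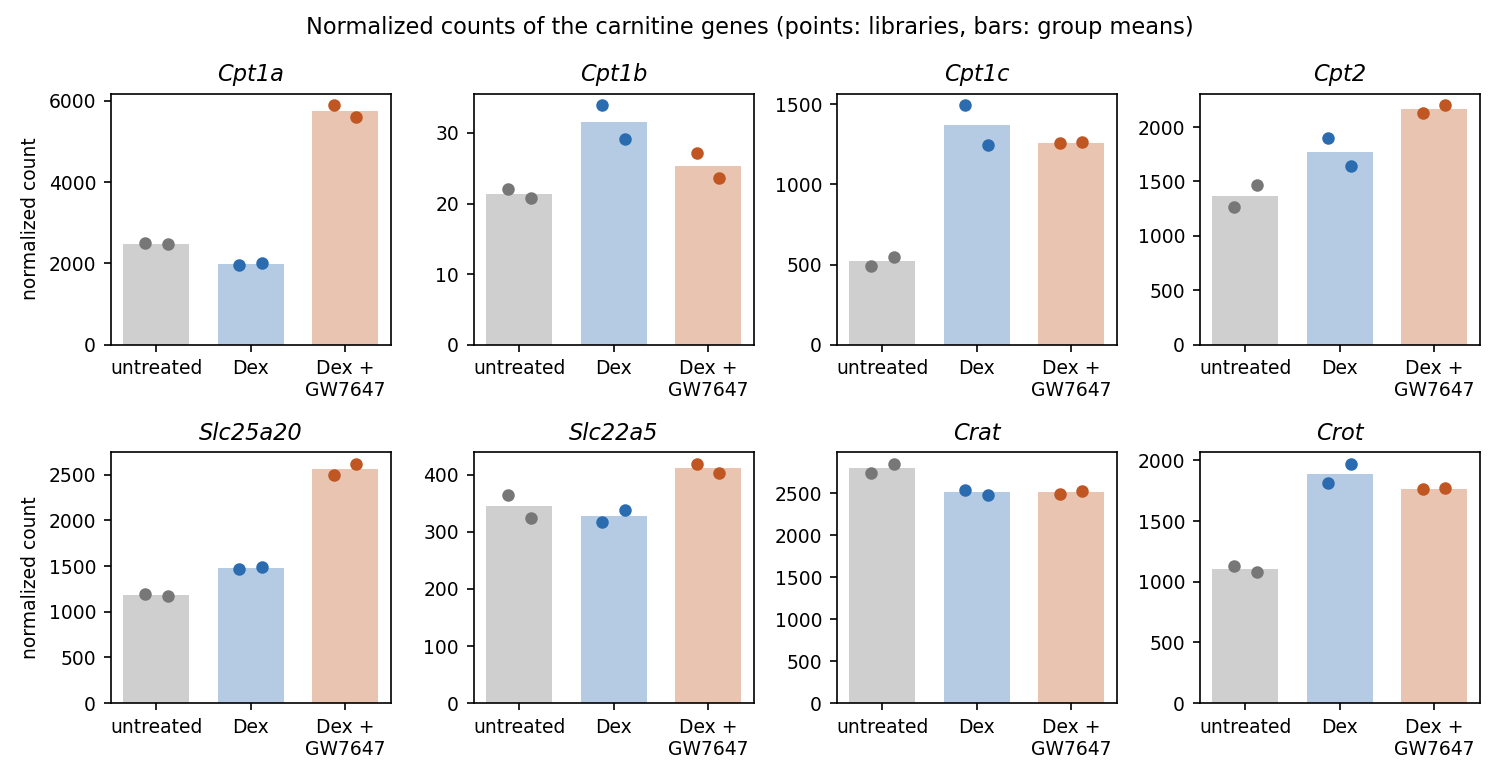
Normalized counts of the 8 carnitine genes in each of the 6 libraries, one panel per gene, with points for libraries and bars for the mean of the 2 libraries in each group. Cpt1a stands at 5595 and 5890 with Dex plus GW7647, above 1971 to 2496 in the other 4 libraries, while Cpt1c stands at 1245 to 1492 in the 4 libraries with Dex and at 490 and 548 in untreated ones.

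Cpt1a (ENSMUSG00000024900), the liver form of CPT1, fell with Dex and rose when GW7647 was added to it. It had 2496 and 2486 normalized counts in the untreated libraries, 1971 and 2004 with Dex, and 5890 and 5595 with Dex plus GW7647. Both Dex libraries lie below both untreated ones, and both libraries with GW7647 lie above the other 4. With Dex it fell by 0.33 on the log2 scale (SE 0.05, 95% interval -0.44 to -0.22), 0.798-fold, with an adjusted p of 3.47e-04. With GW7647 added to Dex it rose by 1.53 on the log2 scale (SE 0.05, 95% interval 1.42 to 1.64), 2.89-fold, with an adjusted p of 2.13e-07. This placed Cpt1a at rank 11 of 14125 genes by size of rise and at rank 3 by p. Against untreated cells the libraries with both drugs were 2.31-fold higher (log2 1.21, SE 0.05, adjusted p 4.26e-08). These 3 calls held under all 13 alternative fits, with the log2 difference between Dex plus GW7647 and Dex ranging from 1.49 to 1.57.

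Cpt1c (ENSMUSG00000007783), the brain form, rose with Dex and was not called when GW7647 was added. It had 490 and 548 normalized counts in the untreated libraries, 1492 and 1245 with Dex, and 1257 and 1261 with Dex plus GW7647. Every library with Dex lies above both untreated ones, and the 2 groups with Dex overlap. With Dex it rose 2.64-fold (log2 1.40, SE 0.09, 95% interval 1.19 to 1.61, adjusted p 1.31e-06), rank 459 of 14125 by size of rise. With GW7647 added, the log2 difference was -0.12 (SE 0.09, 95% interval -0.32 to 0.07, adjusted p 0.427), and without replicate 1 of Dex it was 0.02. Against untreated cells, both drugs gave a 2.42-fold higher level (log2 1.28, SE 0.10, adjusted p 2.98e-06). Of the neuron markers, Syt1 was at 0 counts in every library, Snap25, Rbfox3, Stmn2 and Elavl4 had 0 to 4, and Tubb3, the one tested, had 405 and 540 raw counts in untreated libraries, 1178 and 909 with Dex and 629 and 513 with both drugs. The summed list was 501 and 631 normalized counts, 914 and 854, and 568 and 607 in the same order, and its part in the Cpt1c result was not tested. In the later annotation 6.53% of the Cpt1c exon bases overlap a gene on the opposite strand, 6530437J22Rik, which was not analysed here.

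Cpt1b (ENSMUSG00000078937), the muscle form, was close to the limit of measurement and was not called in any of the 3 comparisons. It had 18 and 18 raw counts in the untreated libraries, 44 and 31 with Dex, and 30 and 20 with Dex plus GW7647. As normalized counts these are 22.0 and 20.8, 33.9 and 29.1, and 27.1 and 23.6, so the groups do not overlap, but the log2 interval with Dex spans -0.02 to 1.14 around 0.56 (adjusted p 0.0960). Under scaling by total counts that difference was 0.69 with an adjusted p of 0.0438. With GW7647 added the log2 difference was -0.31 (95% interval -0.85 to 0.23, adjusted p 0.483), and with both drugs against untreated it was 0.25 (95% interval -0.37 to 0.87, adjusted p 0.512). At counts this low the intervals are wide, and differences of the sizes they span remain possible. A same-strand gene model, Gm44502, shares 81.4% of the Cpt1b exon bases in the later annotation and was not analysed here, so these few counts are uncertain. Chkb, the choline kinase gene next upstream on the same strand, had means of 1761, 2072 and 2044 normalized counts in the 3 groups and rose by 0.24 on the log2 scale with Dex (adjusted p 0.00257). Striated muscle markers summed to 1.22 and 3.47 normalized counts in the untreated libraries, 26.2 and 10.3 with Dex, and 14.4 and 8.27 with both drugs. Myh6 and Mb had 0 counts in every library. Tnnt2 had 1 and 1 raw counts in the untreated libraries, 29 and 8 with Dex, and 10 and 5 with both drugs. The part of these markers in the Cpt1b counts was not tested.

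The 3 CPT1 forms were next set side by side per kilobase of exon, since counts of different genes compare only per length. Of their summed normalized counts per kilobase, Cpt1c made up 20.8% and 22.8% in the untreated libraries, 49.8% and 45.1% with Dex, and 22.4% and 23.3% with Dex plus GW7647. Cpt1a made up 77.7% and 75.8%, 48.3% and 53.2%, and 76.8% and 75.9% in the same order. Cpt1b stayed at or under 1.88% in all 6 libraries. The Dex libraries thus carried Cpt1a and Cpt1c at like levels, with a ratio of Cpt1c to Cpt1a of 1.03 and 0.847, while the ratio lay between 0.268 and 0.307 in the other 4. Both Dex libraries stand outside the range of the other 4 for both genes. These shares combine the Cpt1c rise and the smaller Cpt1a fall with Dex, and the Cpt1a rise with GW7647. The Cpt1c rise remained in the libraries with both drugs. No test was run on the shares themselves. With the length of the longest coding transcript, a choice made after the data were seen, the Cpt1c share was 23.1% and 25.2%, 53.3% and 48.5%, and 24.7% and 25.7%.

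**Figure D2:**
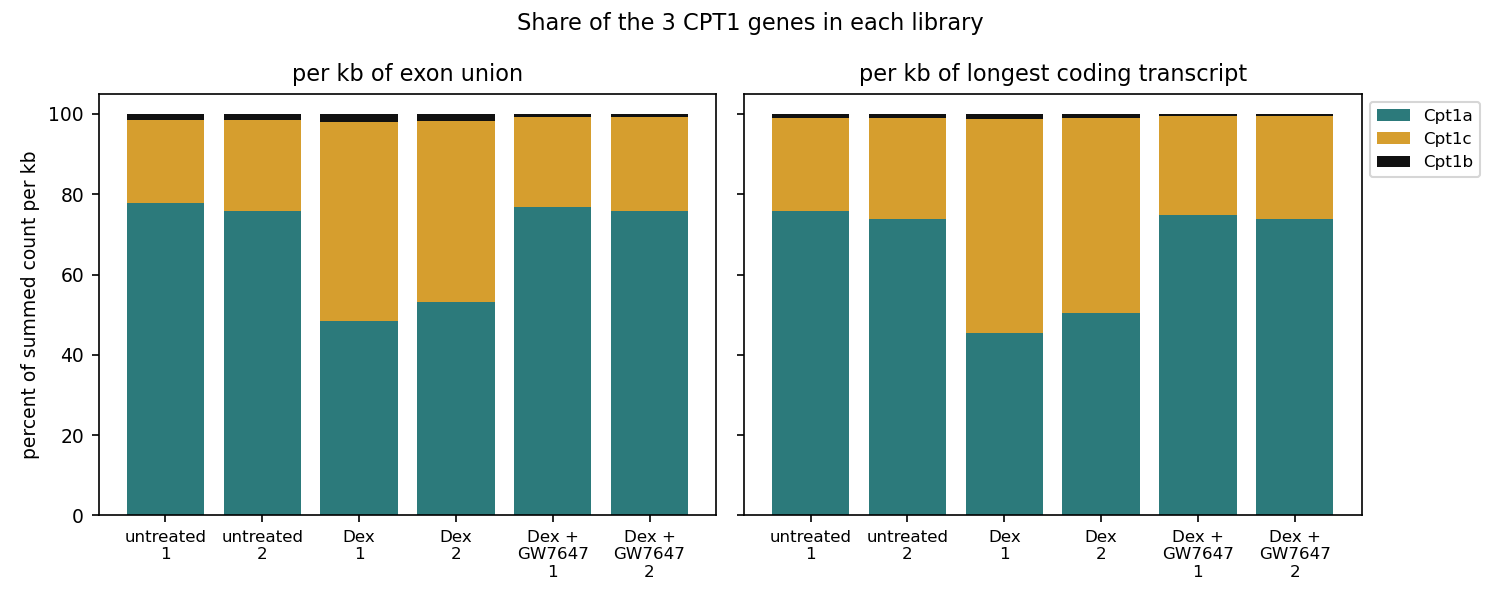
Share of the summed normalized counts per kilobase of the 3 CPT1 genes taken by Cpt1a, Cpt1b and Cpt1c, in percent, stacked for each of the 6 libraries and shown for both gene lengths. By exon length Cpt1c takes 49.8% and 45.1% in the Dex libraries and 20.8% to 23.3% in the other 4.

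Slc25a20 (ENSMUSG00000032602), the carnitine-acylcarnitine carrier of the inner membrane, rose at both steps. It had 1198 and 1177 normalized counts in the untreated libraries, 1471 and 1489 with Dex, and 2497 and 2618 with Dex plus GW7647. The 3 groups do not overlap, and each lies above the one named before it. With Dex it rose 1.25-fold (log2 0.32, SE 0.05, 95% interval 0.20 to 0.44, adjusted p 7.23e-04). With GW7647 added it rose a further 1.73-fold (log2 0.79, SE 0.05, 95% interval 0.67 to 0.90, adjusted p 1.33e-05), rank 73 of 14125 by size of rise and rank 41 by p. Against untreated cells the libraries with both drugs were 2.15-fold higher (log2 1.11, SE 0.05, adjusted p 1.23e-07). All 3 calls held under the 13 alternative fits.

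Cpt2 (ENSMUSG00000028607), the inner transferase, rose with Dex and lay higher again in both libraries with GW7647, a step that missed the threshold. It had 1262 and 1464 normalized counts in the untreated libraries, 1896 and 1641 with Dex, and 2132 and 2199 with Dex plus GW7647. The 3 groups do not overlap, and the Dex libraries are the farthest apart (SD 180 around 1768). With Dex it rose 1.30-fold (log2 0.38, SE 0.08, 95% interval 0.19 to 0.57, adjusted p 0.00416). With GW7647 added the difference was 1.22-fold (log2 0.29, SE 0.08, 95% interval 0.11 to 0.47, adjusted p 0.0543). That step passed the threshold in 6 of 13 alternative fits, among them the fit without Dex replicate 1 (log2 0.40, adjusted p 0.0103) and those without untreated replicate 1 or 2 (adjusted p 0.0350 in each), and the adjusted p ranged from 1.66e-04 to 0.262. Against untreated cells both drugs together gave a 1.59-fold rise (log2 0.67, SE 0.08, adjusted p 1.17e-04).

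Slc22a5 (ENSMUSG00000018900), the carnitine transporter OCTN2, was not called with Dex, nor when GW7647 was added. It had 364 and 325 normalized counts in the untreated libraries, 317 and 338 with Dex, and 419 and 404 with Dex plus GW7647. Untreated and Dex libraries overlap, and both libraries with GW7647 lie above the other 4. With Dex the log2 difference was -0.07 (95% interval -0.29 to 0.14, adjusted p 0.543), and it was 0.05 under scaling by total counts and 0.01 without untreated replicate 1. With GW7647 added the difference was 1.26-fold (log2 0.33, SE 0.09, 95% interval 0.13 to 0.54, adjusted p 0.0520), and without Dex replicate 2 it passed the threshold (log2 0.39, adjusted p 0.0436). Against untreated cells both drugs gave a 1.20-fold rise (log2 0.26, SE 0.10, adjusted p 0.0463), a call that held in 7 of 13 alternative fits. The fits that lost it include those without untreated replicate 2 (0.18, adjusted p 0.259), without replicate 1 of Dex plus GW7647 (0.23, adjusted p 0.202), without its replicate 2 (0.28, adjusted p 0.109), with DESeq2 (adjusted p 0.215) and with DESeq2-type size factors in edgeR (adjusted p 0.0585).

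Crot (ENSMUSG00000003623), the peroxisomal carnitine octanoyltransferase, rose with Dex and was not called when GW7647 was added. It had 1131 and 1077 normalized counts in the untreated libraries, 1813 and 1971 with Dex, and 1765 and 1769 with Dex plus GW7647. All 4 libraries with Dex lie above the untreated ones, and those with GW7647 lie just below those with Dex alone. With Dex it rose 1.71-fold (log2 0.78, SE 0.06, 95% interval 0.64 to 0.91, adjusted p 3.39e-06). With GW7647 added the log2 difference was -0.10 (SE 0.06, 95% interval -0.23 to 0.03, adjusted p 0.341), and against untreated cells both drugs gave a 1.60-fold rise (adjusted p 1.03e-05). Gene models Gm37153 on the opposite strand and Gm27941 on the same strand share 3.04% and 0.715% of its exon bases and were not analysed here.

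Crat (ENSMUSG00000026853), the carnitine acetyltransferase, showed the smallest called differences of the 8 genes. It had 2747 and 2850 normalized counts in the untreated libraries, 2535 and 2485 with Dex, and 2490 and 2533 with Dex plus GW7647. All 4 libraries with Dex lie below both untreated ones, and the 2 groups with Dex overlap. With Dex it fell by 0.16 on the log2 scale (SE 0.05, 95% interval -0.26 to -0.05, adjusted p 0.0190), and with both drugs against untreated it also fell by 0.16 (SE 0.05, adjusted p 0.0207). With GW7647 added the log2 difference was 0.00 (95% interval -0.11 to 0.11, adjusted p 0.996). Each of the 2 calls against untreated held in 7 of 13 alternative fits. Under scaling by total counts the differences were -0.03 (adjusted p 0.652) and -0.04 (adjusted p 0.536), and without untreated replicate 2 the adjusted p was 0.117 and 0.124. Without replicate 1 of Dex plus GW7647 it was 0.0505 and 0.155, and without its replicate 2 it was 0.0518 and 0.0996. Dolpp1, on the opposite strand with 1014 to 1753 counts, shares 1.1% of the Crat exon bases, and Gm16323, on the opposite strand with 3 to 11 counts, shares 7.63%. The labels do not say whether reads were counted by strand.

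**Figure D3:**
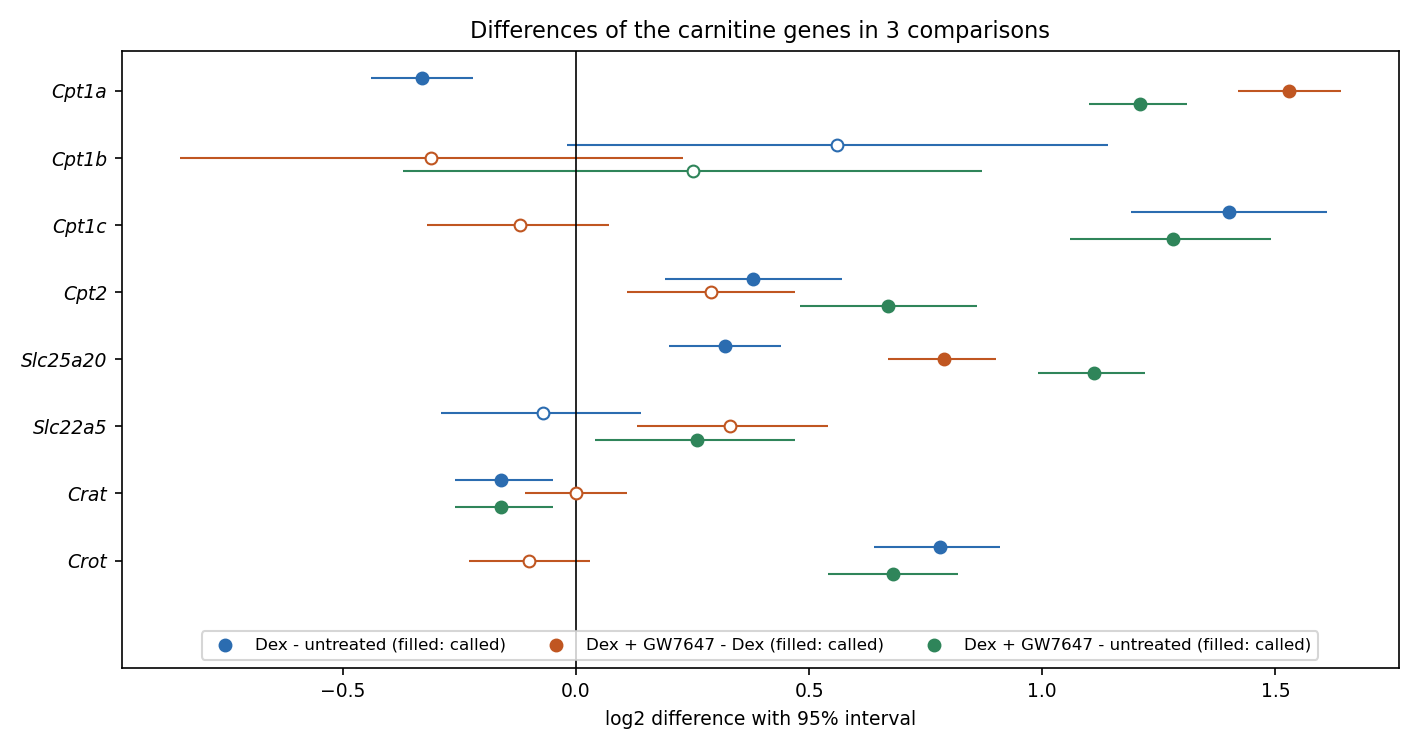
Log2 differences of the 8 carnitine genes with 95% intervals in 3 comparisons, as colours, with filled points for genes called by edgeR's quasi-likelihood test. Cpt1a lies at -0.33 with Dex against untreated and at 1.53 with Dex plus GW7647 against Dex, while Cpt1c and Crot lie at 1.40 and 0.78 with Dex and near 0 with GW7647 added.

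Per kilobase of exon, Cpt2 and Crat led in untreated cells, with 570 ± 59.8 and 519 ± 13.5 normalized counts per kilobase (SD, n = 2), and the 2 overlapped. Cpt1a followed at 326, Slc25a20 at 245, Crot at 202, Slc22a5 at 112, Cpt1c at 92.6 and Cpt1b at 6.35. With Dex the order was Cpt2 at 740, Crat at 466, Crot at 347, Slc25a20 at 305, then Cpt1a at 260 and Cpt1c at 244, which overlapped, then Slc22a5 at 107 and Cpt1b at 9.34. With Dex plus GW7647 it was Cpt2 at 906, Cpt1a at 751, Slc25a20 at 528, Crat at 466, Crot at 324, Cpt1c at 225, Slc22a5 at 134 and Cpt1b at 7.52, with no neighbours overlapping. Cpt1a thus stood at rank 5 of the 8 genes with Dex and at rank 2 with both drugs. The order depends on which length is used. With the longest coding transcript, Slc25a20 was first in every group at 666, 830 and 1434, overlapping Crat in untreated cells, and Cpt1a was at rank 2 with both drugs at 1330. Cpt1b was last in every group by either length.

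**Figure D4:**
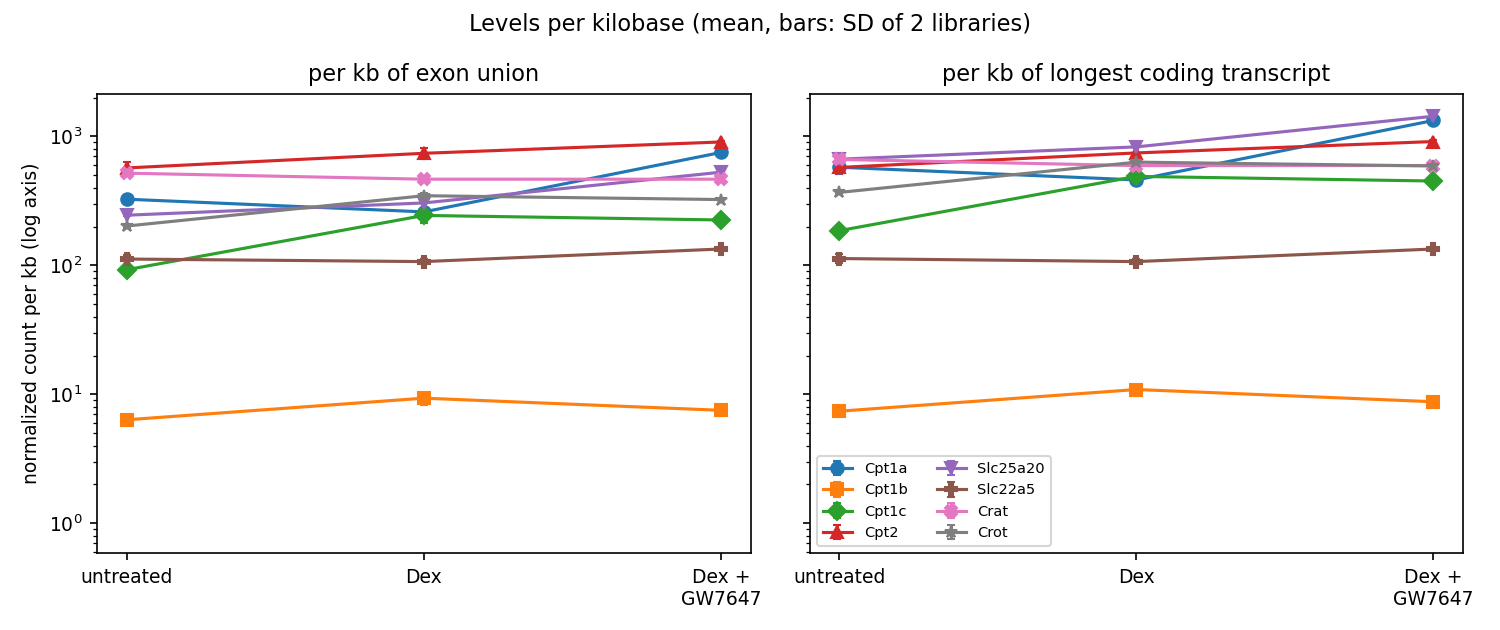
Normalized counts per kilobase of exon (log axis) of the 8 carnitine genes in the 3 groups, with points for the mean and bars for the SD of 2 libraries, for both gene lengths. By exon length Cpt1a moves from 260 with Dex to 751 with Dex plus GW7647, and Cpt1b lies lowest at 6.35, 9.34 and 7.52.

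The genes around the shuttle were read from 6 further lists, chosen with earlier results known. Beside all counts in these lists, 25.5% of all tested genes were higher and 26.0% lower with Dex. The shares over all tested genes were 2.15% and 7.58% with GW7647 added, and 24.7% and 25.1% with both drugs against untreated. Mitochondrial beta-oxidation, which takes up the acyl chains that CPT2 delivers, had 8 of 15 genes higher and 1 lower with Dex (median log2 0.23), and 4 higher and 0 lower with GW7647 added (median 0.11; 7 higher and 1 lower at an unadjusted p under 0.05, and 3 higher and 0 lower with DESeq2). That 4 became 2 without either replicate of Dex plus GW7647, and without Dex replicate 2 one gene was also lower. Against untreated cells 11 of its 15 genes were higher with both drugs and 0 lower (median 0.33). Hadh, the short-chain hydroxyacyl-CoA dehydrogenase, had 1767 and 1761 normalized counts with Dex and 4631 and 4679 with GW7647 added, a rise of 1.40 on the log2 scale (adjusted p 1.75e-06), beside 1.53 for Cpt1a. Etfdh, which passes electrons from the acyl-CoA dehydrogenases to ubiquinone, rose by 0.43 (adjusted p 7.46e-04) and Eci2, an enoyl-CoA isomerase, by 0.23 (adjusted p 0.00981) at the same step. With Dex alone, the thiolase gene Acaa2 rose 2.73-fold (adjusted p 3.42e-08) and the long-chain dehydrogenase gene Acadl 2.01-fold (adjusted p 6.46e-07), and neither was called when GW7647 was added.

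Peroxisomal beta-oxidation, the pathway whose shortened chains Crot prepares for export, had 11 of 16 genes higher and 2 lower with Dex (median log2 0.37). With GW7647 added, 0 of 16 were higher and 3 were lower (median -0.08). The 3 were Abcd2, a peroxisomal fatty acyl-CoA transporter (fell by 0.70 on the log2 scale, adjusted p 0.0135), Acox3, an acyl-CoA oxidase (fell by 0.24, adjusted p 0.0246), and Acox2, a branched-chain acyl-CoA oxidase. Acox2 had 4 and 5 raw counts in untreated libraries, 20 and 17 with Dex and 4 and 4 with both drugs, so it entered the tested genes through the Dex libraries alone, and its calls (higher with Dex, lower with GW7647 added) rest on the group that admitted it. At an unadjusted p under 0.05 edgeR gave 1 higher and 4 lower at that step. DESeq2 called 0 of 16 lower, as did edgeR without replicate 1 or without replicate 2 of Dex plus GW7647, and edgeR without Dex replicate 1 called 1. Hsd17b4 and Scp2, enzymes of later steps of the cycle, rose 1.33-fold and 1.30-fold with Dex.

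Of the genes for carnitine synthesis and other carnitine carriers, 3 of 8 could be tested. Slc22a4, which encodes the transporter OCTN1, had 1665 and 1663 normalized counts in the untreated libraries, 477 and 532 with Dex, and 627 and 639 with both drugs. It fell by 1.73 on the log2 scale with Dex (SE 0.07, adjusted p 3.37e-08) and rose by 0.33 with GW7647 added (SE 0.07, adjusted p 0.0178). Aldh9a1, which encodes an aldehyde dehydrogenase of carnitine synthesis, rose by 0.34 with GW7647 added (SE 0.04, adjusted p 9.77e-04), from a mean of 6837 normalized counts to 8681. Without Dex replicate 1, or without replicate 1 or 2 of Dex plus GW7647, 1 gene of this list was called higher at that step. Slc22a21, a mouse relative of Slc22a5, fell to 0.755-fold with Dex (adjusted p 0.0255). Bbox1, the last enzyme of carnitine synthesis, and the carriers Slc22a16 and Slc6a14 had 0 counts in all 6 libraries.

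Fatty acyl-CoA synthetases, which make the substrate of CPT1, had 1 of 7 tested genes higher and 4 lower with Dex (median log2 -0.19), and 2 higher and 1 lower under scaling by total counts. Without untreated replicate 1, 2 were lower, and without untreated replicate 2 or Dex replicate 2, 0 were higher. Acsl6 fell to 0.472-fold (adjusted p 4.20e-04) and Acsl5 to 0.858-fold (adjusted p 0.00189). With GW7647 added, 0 of the 7 were called in either direction by edgeR and by DESeq2, and at an unadjusted p under 0.05 edgeR gave 1 higher and 1 lower. The genes that set malonyl-CoA and AMP-activated kinase control of CPT1 had 1 of 9 higher and 4 lower with Dex. Under scaling by total counts these were 2 and 2, and over all tested genes 25.5% were higher and 26.0% lower with Dex. With GW7647 added, 1 of the 9 was higher and 0 lower (2 and 0 at an unadjusted p under 0.05). The count of 4 lower was 1 with DESeq2 and without untreated replicate 2 or Dex replicate 1, and 2 without untreated replicate 1 or either replicate of Dex plus GW7647. Of the 4, Prkaa2 had 21 and 31 raw counts in the untreated libraries, 14 and 17 with Dex, and 9 and 5 with both drugs. The 1 gene higher with GW7647 added was Acaca, acetyl-CoA carboxylase 1 (rose by 0.17 on the log2 scale, adjusted p 0.0405), which had 4709 to 6788 raw counts. Its call was lost under scaling by total counts and when any 1 of the 6 libraries was left out. The kinase subunit Prkab2 fell to 0.169-fold with Dex (adjusted p 5.58e-09), from 2246 and 2374 normalized counts to 383 and 399, while Prkab1 rose 1.46-fold (adjusted p 4.64e-06).

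Of 15 other genes known as PPAR alpha targets in liver, 7 could be tested. With Dex 2 rose and 3 fell (median log2 -0.53), with GW7647 added 3 rose and 0 fell (median 0.32; 3 higher and 1 lower at an unadjusted p under 0.05, and 3 and 0 with DESeq2), and with both drugs against untreated 3 rose and 4 fell (median -0.62). Of the 7, 2 had under 10 raw counts in both libraries of a group, and 1 of the rises with Dex, 1 with GW7647 added and 2 against untreated are theirs. Acot2, an acyl-CoA thioesterase with a near-identical copy in Acot1, had 577 and 599 normalized counts in untreated libraries, 57.9 and 59.1 with Dex and 204 and 178 with both drugs. It rose by 1.71 on the log2 scale with GW7647 added (SE 0.13, adjusted p 3.86e-05), and counts may be split between the copies. Plin2, a lipid droplet coat protein, rose by 0.32 (adjusted p 0.00150). Angptl4, a secreted lipase inhibitor, fell to 0.247-fold with Dex (adjusted p 2.68e-07) and stood at -0.39 on the log2 scale with GW7647 added (adjusted p 0.0877). Ucp2 fell to 0.690-fold with Dex (adjusted p 1.78e-05).

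**Figure D5:**
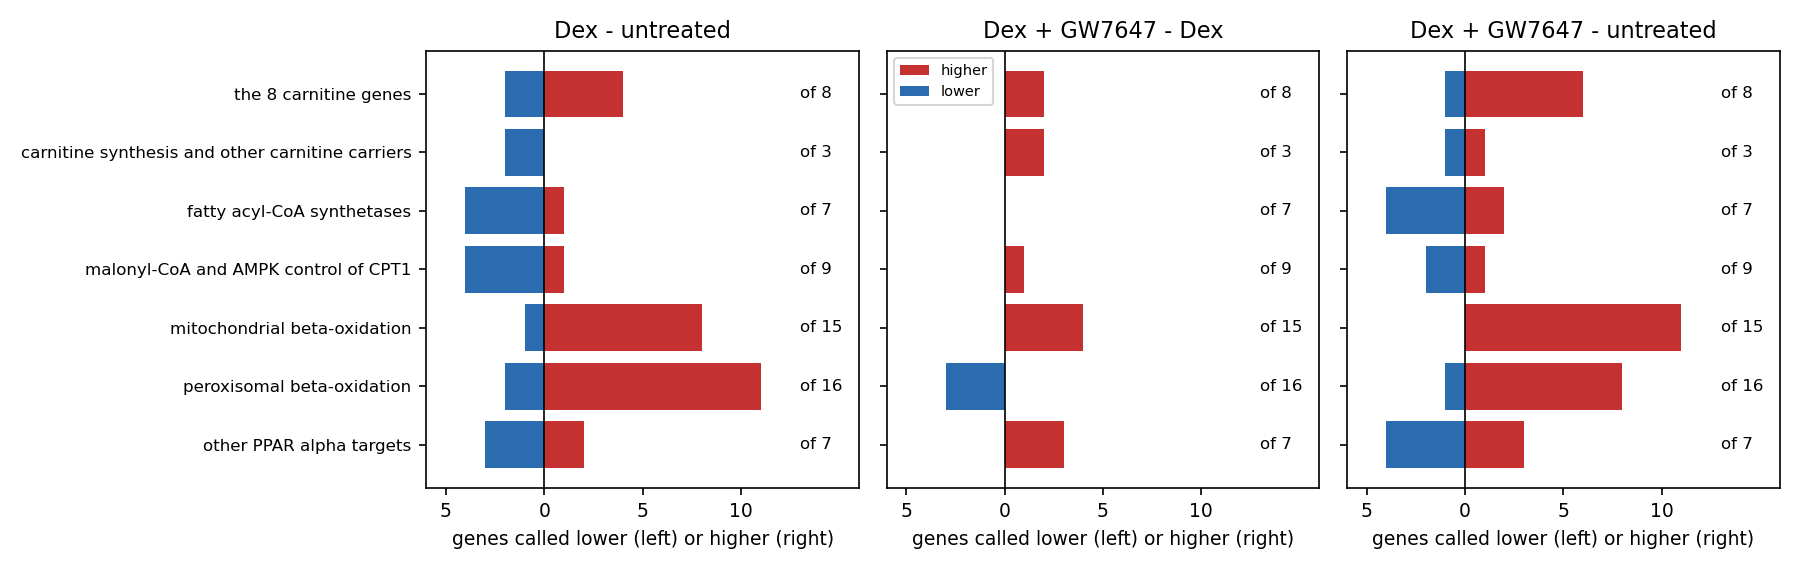
Number of genes called higher (right) and lower (left) by edgeR's quasi-likelihood test among the tested genes of the carnitine list and 6 further lists, one panel per comparison. With Dex plus GW7647 against Dex, 4 of 15 mitochondrial beta-oxidation genes are higher and 0 lower, beside 2.15% and 7.58% of all tested genes. Of 16 peroxisomal genes, 3 are lower and 0 higher. Acox2, 1 of the 3, had over 10 counts in the Dex libraries alone.

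Markers of other blood cells moved with both drugs. From untreated to Dex to Dex plus GW7647, the summed normalized counts of megakaryocyte markers were 34686 and 36718, 16946 and 15161, and 10817 and 10548. Mast cell and basophil markers summed to 4443 and 4455, 1254 and 1303, and 681 and 671. Granulocyte markers summed to 14829 and 15855, 7315 and 6994, and 4348 and 4448, and monocyte markers to 1714 and 1653, 703 and 757, and 505 and 515. Of tested markers, 6 of 7 megakaryocyte, 5 of 6 mast cell, 7 of 8 granulocyte and 3 of 5 monocyte ones fell with Dex. Tpsb2 of the mast cell list rose 1.51-fold with Dex (adjusted p 0.0128) and Cd68 of the monocyte list 1.41-fold (adjusted p 0.0145). With GW7647 added to Dex, 6 of 7, 6 of 6, 7 of 8 and 2 of 5 fell in that order. At that step 0 in these lists rose. Over all tested genes, 26.0% fell with Dex and 7.58% with GW7647 added. Cpt1a and Slc25a20 also differed at that step, where they rose. The part of these markers in the differences of the carnitine genes, in either direction, was not tested.

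The genes whose pattern was most like that of the 2 carnitine genes called with GW7647 were ranked by Pearson's r of log2 CPM (counts scaled to library size) over the 6 libraries, among 10445 genes with a symbol and a mean of at least 100 normalized counts. For Cpt1a these were Cep57l1 (r = 0.9937), Taf11 (0.9924) and Rpp14 (0.9923), and 4 candidates (0.0383%) lay above 0.99. Rpp14, which encodes a ribonuclease P subunit, rose by 0.58 on the log2 scale with GW7647 added (adjusted p 5.50e-05), while Cep57l1 and Taf11 spanned only 1053 to 1181 and 1969 to 2119 normalized counts and were not called. For Slc25a20 they were Setd1a (r = 0.9990), Trim3 (0.9958) and Ccni (0.9955), with 5 candidates (0.0479%) above 0.99. Setd1a and Trim3 rose by 0.20 (adjusted p 0.0189) and 0.41 (adjusted p 0.0269) with GW7647 added, and Ccni was not called. These values describe 6 libraries in 3 groups, where a likeness in group means alone gives a high r whatever its size.

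The authors' deposited table gave ratios of Dex plus GW7647 over untreated of 2.3 for Cpt1a, 2.42 for Cpt1c, 2.15 for Slc25a20, 1.58 for Cpt2 and 1.6 for Crot, each with an adjusted p of 6.62e-13 or smaller in the authors' deposited table. In the authors' deposited table Slc22a5 stood at 1.19 with an adjusted p of 0.134 and Crat at 0.895 with 0.0579, so these 2 genes were called by edgeR and not by the authors. For Dex over Dex plus GW7647 the authors' deposited table gave 0.345 for Cpt1a (adjusted p 1.52e-101), 0.576 for Slc25a20 (7.6e-22), 0.813 for Cpt2 (0.0541) and 0.792 for Slc22a5 (0.14).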

How the data were processed

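RNA was measured in 6 libraries, 2 for each of 3 groups taken from the labels (untreated, Dex, Dex plus GW7647). The libraries were made with the TruSeq RNA kit from TRIzol-extracted RNA, and polyA RNA is named, per the labels. Per the submitters' processing notes, TopHat 1.4.1, HTSeq and DESeq were used with builds mm9 and NCBIM37, with no role given for each. The authors deposited whole-number read counts per gene. The authors also deposited a normalized signal (counts over a size factor per library), which was not tested here. The ratio of group means and its p-value and adjusted p-value are quoted from the authors' deposited table by name. Whether counting used strand is not given in the sources used here.

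The 8 genes and all lists were chosen with earlier results of these data known. Named genes were the 8 members, and from each list up to 3 called with GW7647 added to Dex and up to 2 called only with Dex, by smallest p, with Chkb and the 3 genes most like each member called with GW7647 added. Marker genes were named beside the results they touch. One gene that the rule names is not reported here. The fit to the counts of all 6 libraries used edgeR 4.0.16 (R 4.3.3): filterByExpr with a minimum count of 10 (14125 genes, 99.971% of counts), TMM scaling, glmQLFit and glmQLFTest with Benjamini-Hochberg adjustment and a threshold of 0.05. The procedure was tested on simulated data. Library totals ran from 35970286 to 54174801 counts. Symbols were joined by Ensembl identifier from GENCODE M21 (GRCm38, later than the authors' build) for 32897 of 37620 genes, and exon lengths come from the same annotation. Replicates of a group differed beyond sampling noise (chi-square per gene 3.87 to 20.7). Alternatives were DESeq2 1.42.0, limma-trend (limma 3.58.1), DESeq2-type size factors, total counts, no filter, the 4 libraries of a comparison alone, a replicate block, and each library left out.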

Additional observations from a re-analysis of the deposited data

How the results depend on the processing

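Over 13 other fits and 24 log2 differences of the 8 genes, 276 of 312 values kept their direction and side of the threshold, 18 lost the call, 9 gained it and 9 changed sign, none of these 9 called. The sign changes were Slc22a5 with Dex against untreated (0.05 by total counts, and -0.16 to 0.01 when libraries were left out in turn), Cpt1c with GW7647 added (-0.24 to 0.02 when libraries were left out) and Crat with GW7647 added, which stayed between -0.01 and 0.00 with DESeq2, DESeq2-type size factors, total counts, no filter, without Dex replicate 2 and without Dex plus GW7647 replicate 2. With GW7647 added to Dex, no filter on low counts gave 2085 genes called in place of 1374 and 4 carnitine genes in place of 2, namely Cpt2 and Slc22a5 besides Cpt1a and Slc25a20. Leaving out a library gave 548 to 1729 genes at that step (548 and 618 without replicate 1 and 2 of Dex plus GW7647) and 2 to 3 carnitine genes. The ranges were 6067 to 7077 genes and 5 to 6 carnitine genes for Dex against untreated, and 5285 to 7646 and 5 to 7 for both drugs against untreated. A group left with 1 library was assumed to vary like the others. With the replicate block, 6824, 998 (154 of them higher) and 6523 genes and 6, 2 and 6 carnitine genes were called in the 3 comparisons, and Slc22a5 against untreated was lost (adjusted p 0.0719). Deviations of same-numbered libraries correlated at -0.52, 0.30 and -0.13 (untreated with Dex, Dex with both drugs, untreated with both drugs), so the numbers were not taken as pairs. Crossed numbers, tried after the data were seen, gave 8493 and 7857 genes and 6 and 7 carnitine genes against untreated. Of 468 counts in the other lists, 60 moved by over 1.5 times. Cpt1b, at 18 to 44 counts per library, is limited by depth.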
